A study of Mus musculus with 8 samples.

Results

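The control libraries of a study of mouse skin epithelium were compared between the embryonic stage E16.5 and the newborn stage P0.5, counted in days from conception and from birth. The control libraries were picked by their genotype label, which gave 4 of the 8 libraries in the series, 2 at each stage. The E16.5 control group held K14-H2BGFP+ epithelial cells, named for a reporter in which the promoter of the basal keratin gene Krt14 drives a fluorescent histone. They were freed from dorsal skin with collagenase and trypsin, and living fluorescent cells were collected by flow cytometry. The P0.5 control group held the whole epidermal sheet of newborn dorsal skin, lifted off the dermis with Dispase and lysed in TRIzol with no sorting. Control animals of both stages were littermates of conditional knockouts made with Krt14-Cre, on a mixed C57Bl/6J and CD-1 background. Littermates of the MOF cKO were wild-type or heterozygous, the genotype of the P0.5 littermates is not given in the sources used here, and the labels do not say which genotype a library had. The other 4 libraries, from MOF cKO skin at E16.5 and Kansl1 cKO epidermis at P0.5, were used here only for the overlap of calls given near the end. The sources speak of pairs of samples and do not say whether a library pooled several animals, so the p-values measure the spread between these libraries.

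The epidermis is built by basal cells that hold on to a basement membrane, divide, and send daughters outward. The daughters switch from keratins 5 and 14 to keratins 1 and 10 in the spinous layer, fill with barrier proteins and lipid-loaded lamellar bodies in the granular layer, and end as flat, cross-linked corneocytes that are shed at the surface. In the mouse this programme runs its course in the last days before birth, while hair placodes grow down into follicles, so that the newborn has a working barrier. Stage, isolation and sequencing instrument changed together between the groups. The cells were dissociated and sorted at E16.5 but not at P0.5, and the E16.5 libraries were read on a HiSeq and the P0.5 libraries on a NovaSeq instrument. The effects of stage, of isolation and of instrument on any difference given here therefore cannot be told apart. In these bulk samples, more cells of a type and more RNA per cell cannot be told apart either. In particular, a sort on a reporter of basal cells and a whole sheet with its upper layers sample different cells.

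Reads counted on genes numbered 27561688 and 24957817 in the E16.5 control libraries and 9108709 and 14327981 in the P0.5 control libraries, so on the CPM scale, which sets counts to a common library size, 1 count stood for 0.0309 and 0.0342 CPM at E16.5 and for 0.138 and 0.0768 CPM at P0.5. CPM values here are scaled with TMM factors, which were 1.18 and 1.17 at E16.5 and 0.798 and 0.909 at P0.5. Reads outside annotated genes made up 13.5% to 14.5% of the entries at E16.5 and 7.51% to 7.61% at P0.5, and reads with more than 1 alignment 9.21% to 9.62% and 12.3% to 13.5%. The 10 most abundant genes took 7.58% to 8.90% of counts at E16.5 and 12.1% to 14.3% at P0.5. Across 13859 genes, Pearson's r of log2 CPM was 0.981 between the E16.5 libraries, 0.968 between the P0.5 libraries and 0.742 to 0.782 between stages. Xist, the RNA of the inactive X chromosome, was at 1436 and 9.69 CPM at E16.5 and 512 and 1.46 CPM at P0.5, high in replicate 1 of both stages, and Y-linked genes were counted in replicate 2 of both, so the stages had alike mixtures of sexes.

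The keratinocyte programme differed widely between the stages, with most tested barrier genes higher at P0.5 and most tested genes of DNA replication, mitosis and the immediate early response higher at E16.5. A gene was called where its fold change was over 1.5 and its p from the quasi-likelihood test of edgeR, adjusted by Benjamini and Hochberg's method over all tested genes, was 0.01 or lower. Of 13859 genes tested, 3070 (22.2%) were called higher and 2436 (17.6%) lower at P0.5. Fold changes were wider upward than downward. A log2 fold change over 5 was seen in 561 called genes that were higher and in 35 that were lower. Both P0.5 libraries lay above both E16.5 libraries in 40.0% of the tested genes and below them in 40.9%. The higher genes made up 55.8% of the calls with TMM factors and 32.5% when counts were divided by library size alone, where 2089 genes were higher and 4340 lower. That scaling moved the median log2 fold change of all tested genes from -0.011 to -0.47, while upper-quartile factors moved it to -0.12. Among the called genes, 154 of those higher had 0 counts in both E16.5 libraries, and 21 of those lower had 0 counts in both P0.5 libraries. For such genes a fold change is given as a lower bound set against 3 counts in each library at 0.

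**Figure D1:**
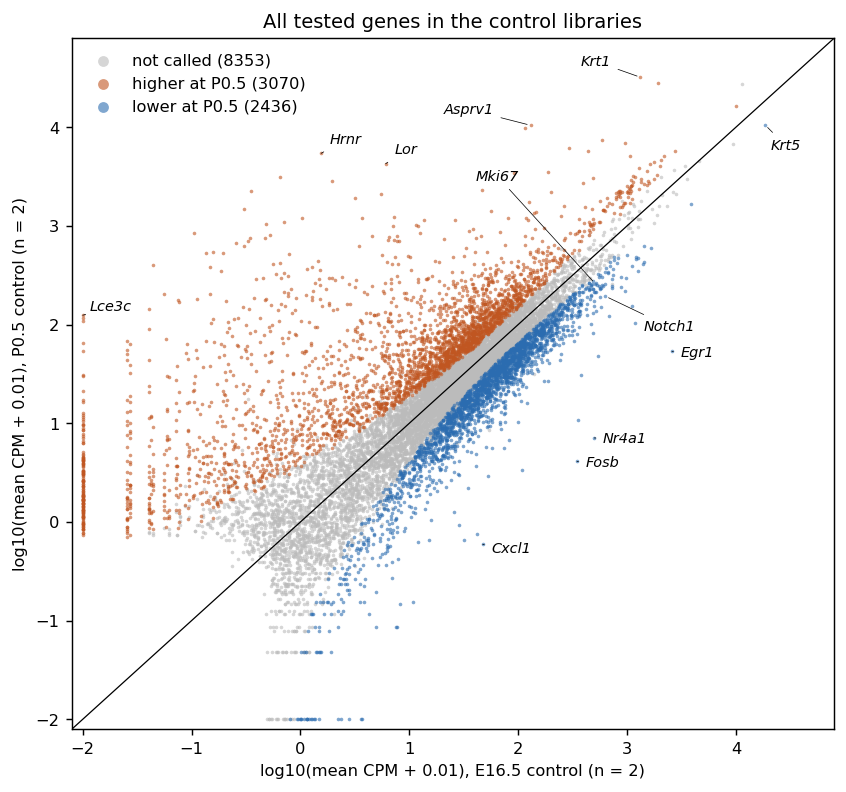
Mean expression of the 13859 tested genes in the E16.5 control libraries (x axis) and the P0.5 control libraries (y axis), as log10 of the mean CPM plus 0.01 (n = 2 each). The 3070 genes called higher at P0.5 (orange) reach far above the line of equality, while most of the 2436 called lower (blue) stay close below it, and Egr1, Nr4a1 and Fosb are among the genes far below it.

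The spinous keratins went from a minor to a leading share of the RNA. Krt1, the type II keratin that replaces keratin 5 above the basal layer (chr15:101845426-101850794, minus strand of mm10), was at 1465 and 1189.7 CPM at E16.5 and 42514 and 21484 CPM at P0.5 (log2 fold change 4.59, standard error 0.348, adjusted p = 2.82e-05). Its partner Krt10 (chr11:99385254-99389364, minus strand) was at 2132 and 1718 CPM at E16.5 and 35919 and 20428 CPM at P0.5 (log2 fold change 3.87, standard error 0.300, adjusted p = 3.19e-05). Both P0.5 libraries lay above both E16.5 libraries for either gene, and P0.5 replicate 1 was the higher P0.5 library. Together with Krt5 they were among the most abundant genes at P0.5, where Krt1 took 3.39% and 1.95% of counts on genes, against 0.172% and 0.139% at E16.5. Per kilobase of transcript, the mean level of Krt1 at P0.5 was 10214 CPM per kb, against 4797 for Krt5, and at E16.5 the order was the reverse, with 424 for Krt1 and 8425 for Krt5. All 11 tested members of a spinous layer list were called higher, among 13 listed, with a median log2 fold change of 4.23. Krtdap, a secreted protein of differentiating keratinocytes, was at 189 ± 21.0 CPM at E16.5 and 3549.8 ± 394 CPM at P0.5 (SD, n = 2). Dsc1, the desmosomal cadherin of the upper layers, went from 7.62 and 6.40 CPM to 1143 and 866 CPM, a log2 fold change of 7.16. Calml3, a calmodulin-like protein of stratified epithelia, had a log2 fold change of 6.07, and Skint3, of a family of keratinocyte immunoglobulin-like proteins, 8.73. The desmogleins Dsg1a and Dsg1b rose by 3.82 and 3.86 on the log2 scale. They are close paralogs, so reads may have been split between them.

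The cornified envelope genes of the epidermal differentiation complex had the highest median fold change of the 56 gene lists examined. This cluster on chromosome 3 (chr3:90511034-93564643 of mm10, from S100a10 to S100a1) encodes the proteins that are cross-linked under the membrane of the dying keratinocyte, and the filaggrin-like and S100 proteins beside them. Of 68 listed genes in the interval, 51 had enough counts to be tested, 45 were called higher, 0 were called lower and the median log2 fold change was 9.46. Loricrin, Lor (chr3:92080271-92083142, minus strand), the main protein of the murine cornified envelope, was at 6.36 and 5.75 CPM at E16.5 and 5319 and 3204 CPM at P0.5 (log2 fold change 9.46, standard error 0.349, adjusted p = 9.12e-07). Involucrin, Ivl, an early scaffold of the envelope, was at 0.339 and 0.685 CPM at E16.5 and 1012 and 587 CPM at P0.5 (log2 fold change 10.61, standard error 0.446, adjusted p = 1.34e-06). The E16.5 values of Ivl rest on 11 and 20 counts. Hornerin, Hrnr, a filaggrin-like protein, was at 0.987 and 2.09 CPM at E16.5 and 6677 and 4179 CPM at P0.5, and Flg2, of the same family, at 1.94 and 1.95 CPM at E16.5 and 3293 and 2448 CPM at P0.5. Their log2 fold changes were 11.79 (adjusted p = 1.31e-06) and 10.52 (adjusted p = 5.31e-07). For each of these genes both P0.5 libraries stood far above both E16.5 libraries, and replicate 1 was the higher at P0.5.

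The late cornified envelope genes, a family of small proteins that join the envelope last, were close to or at 0 at E16.5. Lce1m was at 0.278 and 0.993 CPM at E16.5 and 3297 and 2919.6 CPM at P0.5, and Lce1a1 at 0.401 and 0.548 CPM at E16.5 and 1223 and 846 CPM at P0.5. Lce3c, Lce1l, Lce1k and Lce3e had 0 counts in both E16.5 libraries. Lce3c was at 174 and 74.1 CPM at P0.5 and at least 1271-fold higher, and Lce1l at 123 and 111 CPM and at least 1201-fold higher. Lce1k and Lce3e were at least 1102-fold and 556-fold higher. Lce1e had 2 counts in E16.5 replicate 2 and none in replicate 1, and the ratio of its CPM was 11714 (95% interval 3242 to 96744), where the interval covers counting error only. Crct1, a small cysteine-rich protein of the same cluster, was at 0.339 and 0.342 CPM at E16.5 and 2772 and 1686 CPM at P0.5. Members of the Lce and Sprr2 families are close copies, so the split of reads among them is uncertain. Of 49 listed structural genes of the cluster, 40 were tested and 39 were called higher, a share of 97.5% beside 22.2% of all tested genes. The median was 10.82, or 10.32 with the 7 members at 0 counts in E16.5 taken at their lower bounds. The exception among tested members was Pglyrp4, a peptidoglycan recognition protein. Sprr1b and Rptn, a small proline-rich protein and the filaggrin-like repetin, were much higher in P0.5 replicate 1 than in replicate 2. Sprr1b was at 1.76 and 0.958 CPM at E16.5 and 473 and 50.1 CPM at P0.5, and Rptn at 0.185 and 0.0685 CPM at E16.5 and 955 and 101 CPM at P0.5. Of the S100 calcium-binding proteins at the borders of the cluster, 5 of 10 tested were called higher, and 2 of them without E16.5 control replicate 1 or without E16.5 control replicate 2. S100a16 and S100a14 had log2 fold changes of 2.09 and 1.17, and S100a6 of 0.27 with no call. The share of tested S100 genes called higher in the main comparison was 50%, beside 22.2% of all tested genes. With the correction for transcript length and GC content 1 S100 gene was called higher, their median went from 0.89 to 0.29, and S100a14 was not called (0.67).

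**Figure D2:**
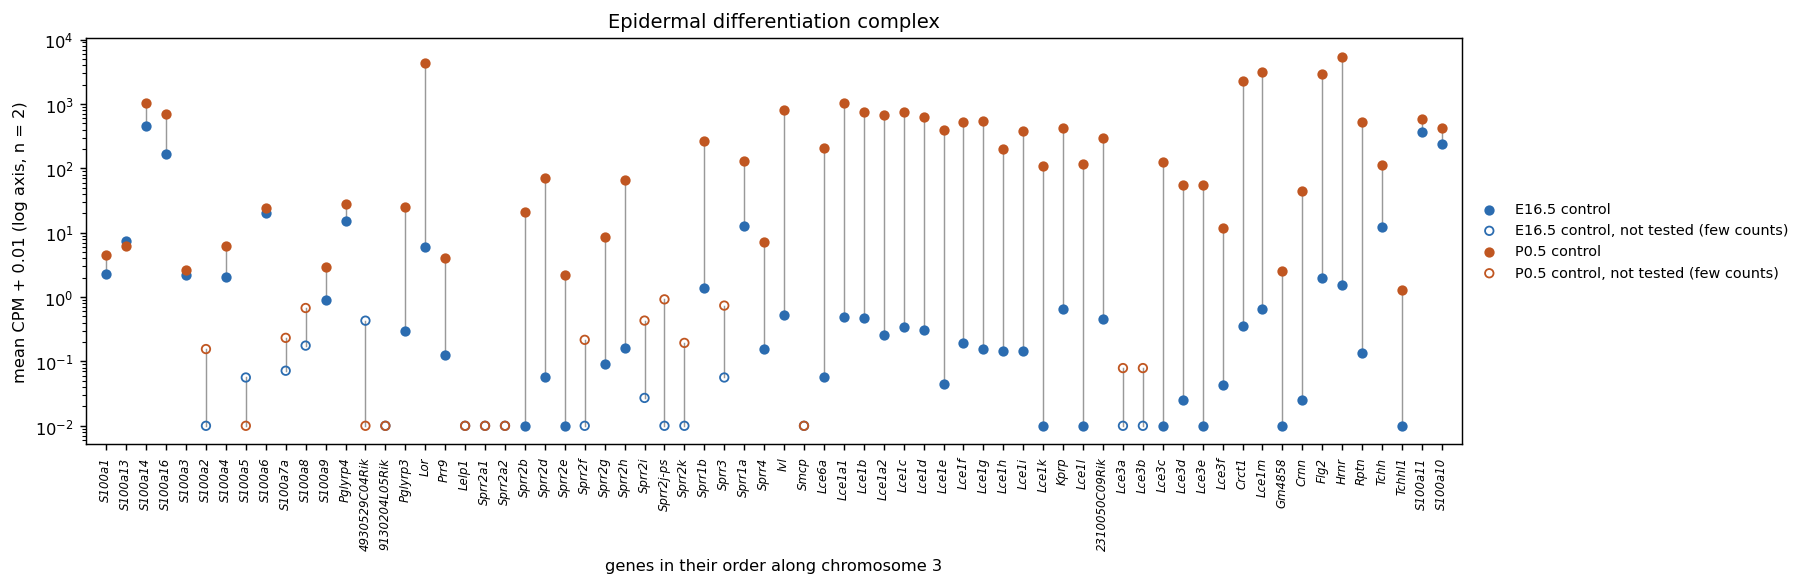
Mean CPM plus 0.01 (log axis, n = 2) of the 68 listed genes of the epidermal differentiation complex in their order along chromosome 3, at E16.5 (blue) and P0.5 (orange), with open circles for the genes with too few counts to be tested. Of the 51 tested genes, 45 were called higher at P0.5 and 0 lower, and the S100 genes at both ends moved less than the Lor, Sprr, Lce and filaggrin-like genes between them.

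The sequences just upstream of the start sites of 5 of these genes are given because their transcripts moved together or, for Krt5, the other way. Each run holds the 150 bases before the start site in RefSeq's annotation of GRCm38.p6, read 5′ to 3′ on the minus strand, which carries all 5 genes. Capitals mark matches to the AP-1 motif TGANTCA or the TATA box TATAAA, searched on both strands. AP-1 factors are dimers of Fos and Jun proteins, and the TATA box places the transcription machinery. The windows are chr15:101712906-101713055 for Krt5, chr11:99389365-99389514 for Krt10, chr3:92083143-92083292 for Lor, chr3:92573736-92573885 for Ivl and chr3:93019062-93019211 for Lce1m.
Krt5: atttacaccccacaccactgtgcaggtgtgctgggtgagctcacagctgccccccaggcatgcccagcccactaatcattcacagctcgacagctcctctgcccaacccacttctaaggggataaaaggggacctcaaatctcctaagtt
Krt10: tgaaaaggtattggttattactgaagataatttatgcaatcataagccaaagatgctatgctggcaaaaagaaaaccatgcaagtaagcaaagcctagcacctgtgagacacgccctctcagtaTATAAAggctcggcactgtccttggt
Lor: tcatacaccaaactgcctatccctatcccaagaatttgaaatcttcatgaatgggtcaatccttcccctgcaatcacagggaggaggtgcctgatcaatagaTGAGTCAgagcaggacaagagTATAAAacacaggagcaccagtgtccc
Ivl: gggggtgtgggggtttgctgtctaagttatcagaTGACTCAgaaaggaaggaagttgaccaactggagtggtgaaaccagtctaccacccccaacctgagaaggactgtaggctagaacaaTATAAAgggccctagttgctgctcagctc
Lce1m: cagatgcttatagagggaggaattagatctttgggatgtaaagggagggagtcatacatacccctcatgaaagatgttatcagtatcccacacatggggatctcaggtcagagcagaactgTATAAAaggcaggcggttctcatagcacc

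The Lor window held TGAGTCA 48 to 42 bases before the start, and the Ivl window TGACTCA 116 to 110 bases before it. TATAAA lay between 29 and 21 bases before the start in Krt10, Lor, Ivl and Lce1m, and neither motif matched in the Krt5 window. In the 250 bases before the start, the AP-1 motif was found for 13 (38.2%) of 34 tested structural genes of the cluster with an entry in the promoter table, for 5 (20%) of 25 cornification genes, and for 7.82% of 27025 genes in the table. TATAAA was found for 17 (50%) of the 34, for 6 (24%) of the 25, and for 14.3% of all. The letters of these motifs cannot overlap each other. Such letters describe the windows and do not show that a factor binds there.

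Enzymes and partners of cornification rose with the envelope proteins. Of 29 tested genes of this list 26 were called higher and 0 lower, with a median log2 fold change of 5.34. Tgm1, the transglutaminase that welds the envelope to the membrane, was at 5.49 and 3.49 CPM at E16.5 and 304 and 192 CPM at P0.5 (log2 fold change 5.78, standard error 0.318, adjusted p = 4.98e-06), and Tgm3, which cross-links envelope precursors, had a log2 fold change of 5.90. The protease caspase 14, Casp14, which acts on filaggrin, was at 8.33 and 7.84 CPM at E16.5 and 903 and 492 CPM at P0.5 (log2 fold change 6.43, standard error 0.335, adjusted p = 3.86e-06). Asprv1, a retroviral-like aspartic protease that processes profilaggrin, was at 121 and 139.5 CPM at E16.5 and 13155 and 7717 CPM at P0.5, and with Calm4, a calmodulin-like protein at 107 and 126 CPM at E16.5 and 11588 and 8137 CPM at P0.5, joined the 10 most abundant genes at P0.5. Cdsn, the corneodesmosome protein that holds corneocytes together, was at 0.864 and 0.513 CPM at E16.5 and 1508 and 692 CPM at P0.5. Hal, histidase, which makes urocanic acid from the histidine of degraded filaggrin, went from 1.14 and 0.890 to 1363 and 1062 CPM. Stfa3, a cystatin of the stefin A family, was at 676 and 510.4 CPM at E16.5 and 7972 and 6921 CPM at P0.5, and the 5 tested stefin A genes of chromosome 16 all rose, though these near-copies can share reads. The genes of this list without a call were Padi3, Padi4 and Psors1c2.

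Genes for barrier lipids and for shedding were higher in almost every tested case. Of 35 tested barrier lipid genes, 33 rose and 0 fell, with a median log2 fold change of 4.25. Abca12, the transporter that loads lipid into lamellar bodies, was at 9.44 and 6.09 CPM at E16.5 and 912 and 498 CPM at P0.5 (log2 fold change 6.4996, standard error 0.384, adjusted p = 7.36e-06). The lipoxygenases Alox12b and Aloxe3 act in turn on the linoleate of acylceramides, and their log2 fold changes were 8.20 (adjusted p = 4.14e-06) and 7.37 (adjusted p = 2.46e-06). Elovl4, which makes the very long chain fatty acids of these ceramides, was at 11.5 ± 1.29 CPM at E16.5 and 1018 ± 368 CPM at P0.5 (SD, n = 2), and Cers3, the matching ceramide synthase, at 30.4 ± 5.03 CPM at E16.5 and 338 ± 163 CPM at P0.5 (SD, n = 2). Sptlc3, a subunit of the enzyme that starts sphingolipid synthesis, rose by 3.98 on the log2 scale, and Smpd3, a sphingomyelinase, by 7.98. Sdr9c7, a dehydrogenase of the acylceramide pathway, and Lipk and Lipn, lipases of the last differentiation steps, showed the widest differences of the list. Sdr9c7 was at 0.247 and 0.103 CPM at E16.5 and 439.8 and 262 CPM at P0.5, Lipk at 0.0309 and 0.171 CPM at E16.5 and 214 and 147 CPM at P0.5 and Lipn at 0.0926 and 0.0685 CPM at E16.5 and 78.9 and 49.2 CPM at P0.5.

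Kallikreins cut the corneodesmosomes when corneocytes are shed, and Spink5 encodes their inhibitor LEKTI. Klk7 was at 5.40 and 5.58 CPM at E16.5 and 2723 and 1529 CPM at P0.5 (log2 fold change 8.596, standard error 0.360, adjusted p = 1.33e-06), and Klk5 at 1.27 and 1.71 CPM at E16.5 and 423 and 285 CPM at P0.5 (log2 fold change 7.89, standard error 0.297, adjusted p = 9.12e-07). Spink5 was at 3.05 and 3.29 CPM at E16.5 and 2502 and 1355 CPM at P0.5 (log2 fold change 9.25, standard error 0.388, adjusted p = 1.33e-06). Prss8, the membrane protease prostasin, was at 6.42 ± 0.355 CPM at E16.5 and 109 ± 21.6 CPM at P0.5 (SD, n = 2), a log2 fold change of 4.08. Its partner matriptase, St14, was at 86.1 and 83.4 CPM at E16.5 and 97.4 and 68.4 CPM at P0.5, and its libraries overlapped between the stages. Of 22 tested members, 18 rose and 1, Klk10, fell. In the kallikrein cluster on chromosome 7, 7 of 9 tested genes were called higher, and in the serpin B cluster on chromosome 1, which holds epidermal protease inhibitors, 11 of 12 with a median log2 fold change of 5.04.

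Of the basal layer genes, some were lower by a small amount and others, Krt14 among them, were not called. Krt5 (chr15:101707070-101712898, minus strand), the basal type II keratin and the most abundant gene at E16.5, was at 18589 and 18432 CPM at E16.5 and 10087 and 10990.4 CPM at P0.5 (log2 fold change -0.81, standard error 0.162, adjusted p = 0.00344). Its partner Krt14, whose promoter drove the reporter used for the sort, was at 9498 and 9187 CPM at E16.5 and 6328 and 7209.9 CPM at P0.5, a log2 fold change of -0.46 that was not called (adjusted p = 0.0412). Krt15, a keratin of basal and bulge cells, was at 3936 and 3154 CPM at E16.5 and 3324 and 2641 CPM at P0.5 with overlapping libraries. Trp63, the master regulator of stratified epithelia, was at 670.05 and 599.6 CPM at E16.5 and 375 and 369 CPM at P0.5 (log2 fold change -0.77, standard error 0.155, adjusted p = 0.00354). With any 1 library left out its log2 fold change was -0.86 to -0.69, but without E16.5 control replicate 1 or without E16.5 control replicate 2 it was not called. All 4 libraries thus held high levels of the defining keratinocyte genes. Of 11 tested basal genes 6 fell and 0 rose, with a median of -0.77. Beside Krt5 and Trp63 these were Wnt4, a Wnt ligand of basal cells, the growth factor binding proteins Igfbp2 and Igfbp5, and Sox6, with log2 fold changes of -1.13, -1.64, -2.93 and -2.33. With the correction for length and GC content Krt5 (-0.58) and Wnt4 (-0.60) were not called, and with library size alone Krt14 (-0.92) and Krt15 (-0.72) were called lower.

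Hemidesmosomes pin basal cells to the basement membrane. Col17a1, Itga6 and Lamb3, which encode collagen XVII, integrin alpha 6 and a chain of laminin 332, were not called. Their log2 fold changes were -0.204 (adjusted p = 0.309), 0.13 (adjusted p = 0.509) and -0.25 (adjusted p = 0.209), and that of Col17a1 was 0.66 with the correction for transcript length and GC content. Col7a1, the collagen of the anchoring fibrils, was at 1263 and 1553 CPM at E16.5 and 428 and 392 CPM at P0.5 (log2 fold change -1.78, standard error 0.177, adjusted p = 1.17e-04). Frem2, of the Fraser complex under the embryonic epidermis, was at 583 and 546 CPM at E16.5 and 155 and 229.9 CPM at P0.5 (log2 fold change -1.55, standard error 0.211, adjusted p = 5.21e-04). Itgb4, integrin beta 4, had a log2 fold change of -0.88 and was not called without E16.5 control replicate 1 (-0.86). Of 31 tested genes 15 fell and 3 rose, Frem3, Nid1 and Dst, with a median of -0.73, and Frem3 was not called without P0.5 control replicate 1 (7.95). This list changed with the correction for transcript length and GC content, under which 3 fell, the median was 0.053, Itgb4 was at 0.26, and Col7a1 and Frem2 were not called, at -0.34 and -0.75. Nid1, which basement membranes receive largely from dermal cells, was at 8.76 and 17.4 CPM at E16.5 and 103 and 45.8 CPM at P0.5.

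Junction genes were mostly higher where called. Ocln and Cldn1 build the tight junctions of the granular layer. Cldn1 was at 84.1 and 68.1 CPM at E16.5 and 739 and 553 CPM at P0.5 (log2 fold change 3.09, standard error 0.212, adjusted p = 1.63e-05), and Ocln at 7.22 and 4.93 CPM at E16.5 and 60.1 and 48.3 CPM at P0.5 (log2 fold change 3.15, standard error 0.244, adjusted p = 3.17e-05). Cldn4 and Cldn23 rose by 1.999 and 7.95 on the log2 scale, whereas Cldn6, known from the embryonic epidermis, and Cldn7 fell, with log2 fold changes of -3.29 and -4.63 from E16.5 means of 2.55 and 3.79 CPM. The fall of Cldn6 was not called without P0.5 control replicate 2 (-2.61). Of 16 tested tight junction genes 7 (43.8%) rose and 2 (12.5%) fell, beside 22.2% and 17.6% of all tested genes. Among desmosome and adherens junction genes 6 of 20 (30%) rose, closer to the share of all tested genes, and 0 fell. Their median of 0.35 was -0.12 with library size alone. Desmoplakin, Dsp, the desmosomal protein of all layers, was at 2713 ± 289 CPM at E16.5 and 3659 ± 1144 CPM at P0.5 (SD, n = 2) with no call, but was called higher without P0.5 control replicate 2 (0.72). E-cadherin, Cdh1, and P-cadherin, Cdh3, the cadherin of basal and hair placode cells, had log2 fold changes of 0.42 (adjusted p = 0.0690) and -0.42 (adjusted p = 0.0530). Perp, a desmosome-linked membrane protein that p63 controls, was at 981 and 939.9 CPM at E16.5 and 8014 and 5646 CPM at P0.5 (log2 fold change 2.83, standard error 0.215, adjusted p = 2.86e-05).

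Keratins outside the main pairs went both ways. Krt8 and Krt18, the pair of simple epithelia and of the periderm that covers the embryo, fell. Krt8 was at 24.4 and 23.7 CPM at E16.5 and 7.29 and 6.22 CPM at P0.5 and Krt18 at 6.02 and 6.54 CPM at E16.5 and 1.38 and 1.31 CPM at P0.5, and their log2 fold changes were -1.84 (adjusted p = 3.10e-04) and -2.23 (adjusted p = 0.00169). Krt78, Krt80 and Krt23 rose by 8.30, 3.01 and 9.12 on the log2 scale. The stress keratins Krt6b and Krt16, which appear in wounded or strained epidermis, were high in P0.5 control replicate 1. Krt16 was at 39.0 and 43.3 CPM at E16.5 and 1341 and 157 CPM at P0.5 (log2 fold change 4.18, standard error 0.829, adjusted p = 0.00328), and Krt6b at 0.957 and 0.685 CPM at E16.5 and 252 and 9.22 CPM at P0.5 (log2 fold change 7.28, standard error 1.42, adjusted p = 0.00308). Krt6a was at 14.3 and 16.0 CPM at E16.5 and 55.6 and 9.45 CPM at P0.5 and not called, while Krt17, also a keratin of hair placodes, was at 1482 and 2084 CPM at E16.5 and 1019 and 1104 CPM at P0.5 and not called. Without P0.5 control replicate 2 Krt6a was called higher (1.87), and without E16.5 control replicate 1 Krt17 was called lower (-0.97). The Krt6 genes are close paralogs.

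**Figure D3:**
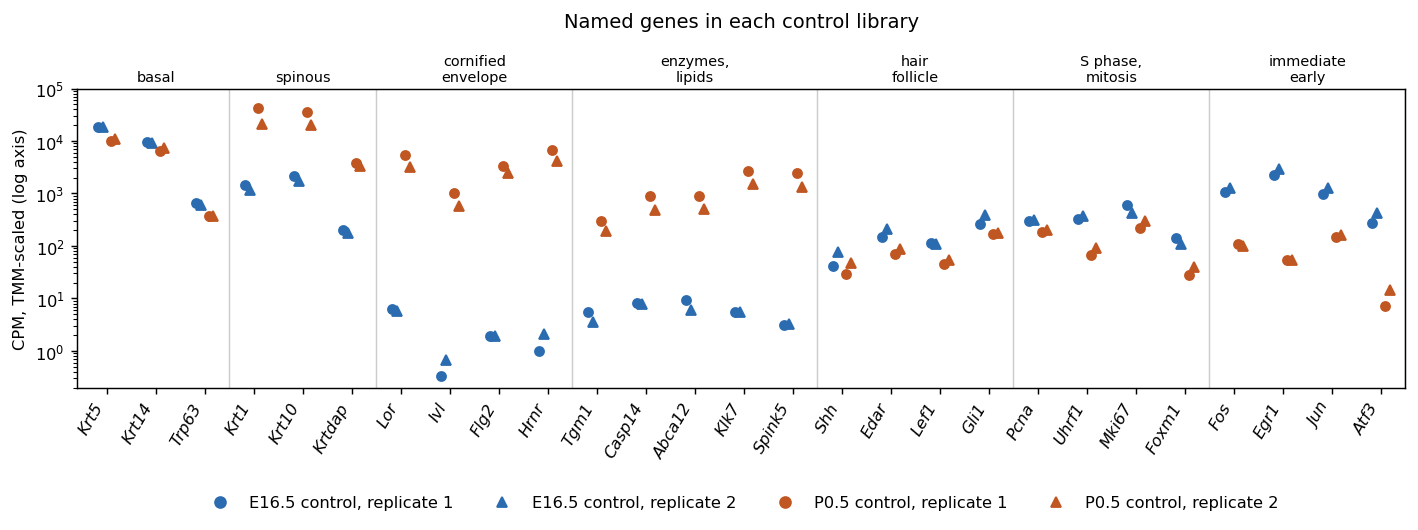
CPM (log axis) of named genes in each of the 4 control libraries, grouped by role, with circles for replicate 1 and triangles for replicate 2. Spinous, envelope and enzyme genes stand far higher at P0.5 (orange). Basal genes, hair follicle genes other than Shh, and proliferation genes lie close below E16.5 (blue), and immediate early genes lie far below it. The libraries of Shh overlap between the stages.

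Epidermal transcription factors were mostly higher where called. Of 45 tested 21 rose and 4 fell, with a median of 0.68, and 10 fell with library size alone. Hopx, a homeodomain-only cofactor, was at 3.95 and 7.29 CPM at E16.5 and 736 and 271 CPM at P0.5 (log2 fold change 6.49, standard error 0.551, adjusted p = 5.23e-05). Elf5, an Ets factor of differentiating epithelia, and Nfe2l3, a relative of Nrf2, had log2 fold changes of 5.80 (adjusted p = 9.60e-05) and 5.05 (adjusted p = 1.30e-05). Klf4 and Ovol1, which drive barrier formation and the exit from the basal state, rose. Klf4 was at 215 ± 6.29 CPM at E16.5 and 483 ± 146 CPM at P0.5 (SD, n = 2) and Ovol1 at 25.6 ± 2.63 CPM at E16.5 and 119 ± 26.9 CPM at P0.5 (SD, n = 2), with log2 fold changes of 1.17 and 2.22. Grhl3, needed for the barrier, had a log2 fold change of 0.74, without a call when E16.5 control replicate 2 (0.60) or P0.5 control replicate 2 (0.60) was left out. The factors lower at P0.5 were Trp63, Grhl2, Satb1 and Tfap2b, of which 1 was called without E16.5 control replicate 1 and 2 without E16.5 control replicate 2. Gata3 and Pou2f3 were not called, at -0.18 and 0.17.

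Hair follicle genes that were called were mostly lower at P0.5 among those of the placode and germ, and higher among those of the shaft and inner root sheath. Hair placodes and germs form where Wnt and Edar signals meet, and they send Shh to the dermis. Edar, the ectodysplasin receptor, was at 149 and 206 CPM at E16.5 and 69.5 and 88.2 CPM at P0.5 (log2 fold change -1.17, standard error 0.199, adjusted p = 0.00157). Lef1, the nuclear partner of beta-catenin, was at 113 and 109 CPM at E16.5 and 45.4 and 55.1 CPM at P0.5 (log2 fold change -1.14, standard error 0.154, adjusted p = 5.05e-04), and Wnt10b had a log2 fold change of -1.20 (adjusted p = 0.00293). Dkk4, an inhibitor made by placodes, went from 11.7 and 10.7 to 0.826 and 1.61 CPM, and Tbx1 had a log2 fold change of -2.68. Shh was at 41.2 and 76.8 CPM at E16.5 and 29.9 and 47.8 CPM at P0.5 and Lhx2 at 86.5 and 163 CPM at E16.5 and 74.3 and 78.2 CPM at P0.5, without a call, and Sox9, the factor of follicle progenitors, was at 44.6 and 58.4 CPM at E16.5 and 45.6 and 48.2 CPM at P0.5 with overlapping libraries. Shh and Lhx2 were higher in E16.5 replicate 2 than in replicate 1, and without E16.5 control replicate 1 both were called lower (-0.98 and -1.097). Of 28 tested placode and germ genes 12 fell, 1 rose, the chemokine receptor Cxcr4, 15 were not called, and the median was -0.66. Of 23 tested hair shaft and inner root sheath genes, among 44 listed, 13 rose, 0 fell and 10 were not called, and 8 rose without P0.5 control replicate 1 and 5 without P0.5 control replicate 2. The inner root sheath keratin Krt25 was at 0.0309 and 0 CPM at E16.5 and 10.3 and 10.8 CPM at P0.5, and Krt71 at 1.30 and 1.27 CPM at E16.5 and 7.57 and 16.3 CPM at P0.5. The log2 fold change of Krt71 was 3.23, and the ratio of the CPM of Krt25 was 653 (95% interval 116 to 25916). Hoxc13 and Foxn1, factors of the hair shaft, had log2 fold changes of -0.42 and -0.54 with no call.

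Hedgehog signalling, which the follicle uses for downgrowth, had members that fell and none that rose. Ptch1 and Gli1 are both parts and targets of the pathway. Gli1 was at 262 and 388 CPM at E16.5 and 171 and 178 CPM at P0.5 (log2 fold change -0.90, standard error 0.204, adjusted p = 0.00630). Ptch1 was at 363 and 430.2 CPM at E16.5 and 264 and 247 CPM at P0.5 and just missed the threshold (adjusted p = 0.0105). Gli2, the main activator, Disp1, which releases the ligand, and Kif7, a ciliary regulator, had log2 fold changes of -1.43, -1.5001 and -1.41. Of 15 tested members 8 fell and 0 rose, with a median of -0.90. Gli1 was not called without E16.5 control replicate 2 (-0.59), without P0.5 control replicate 1 (-0.86) or without P0.5 control replicate 2 (-0.92). With the correction for length and GC content 3 members fell, the median was -0.41, and Gli1, Gli2 and Kif7 were not called.

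Of 51 tested genes of the Wnt pathway, 19 (37.3%) fell and 6 (11.8%) rose, with a median of -0.63. The shares over all tested genes were 17.6% and 22.2%. Axin2, the common readout of beta-catenin activity, was at 99.2 and 97.8 CPM at E16.5 and 84.4 and 89.8 CPM at P0.5 (log2 fold change -0.18, standard error 0.136, adjusted p = 0.293), which did not pass, and Wnt7b, a ligand of the interfollicular epidermis, was at 0.18. Nkd2, an inhibitor, rose by 2.59. Without E16.5 control replicate 1, P0.5 control replicate 1 or P0.5 control replicate 2, 3 members rose, and with the length and GC correction 8 fell. In the Notch pathway, which promotes the spinous fate, 6 of 22 tested genes fell and 3 rose, Nrarp and Adam17 among them, of which 1 was called without E16.5 control replicate 1. Of the tested Notch genes 27.3% thus fell and 13.6% rose, beside 17.6% and 22.2% of all tested genes. The receptor Notch1 was at 620.4 and 640.3 CPM at E16.5 and 207 and 181 CPM at P0.5 (log2 fold change -1.70, standard error 0.160, adjusted p = 9.03e-05). Its ligands Dll1 and Jag2 had log2 fold changes of -0.91 (adjusted p = 0.00562) and -0.83 (adjusted p = 0.00337), and the target Hes1 was at 32.6 and 33.986 CPM at E16.5 and 39.0 and 38.8 CPM at P0.5 with no call. The Notch calls shifted with the length and GC correction, under which the list median went from -0.28 to 0.060, Notch1 was not called (-0.51), Jag2 was at 0.23 and Notch3, another receptor, was called higher at 0.90 in place of -0.38 with no call. Without E16.5 control replicate 2 Jag2 was not called (-0.74), and Dll1 was not called without E16.5 control replicate 1 (-0.62), P0.5 control replicate 1 (-0.84) or P0.5 control replicate 2 (-0.98).

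Of 19 tested genes of the EGF receptor pathway 2 rose and 4 fell, with a median of -0.077. The share that rose was below the 22.2% of all tested genes, and the share that fell was close to their 17.6%. Both genes that rose encode ligands. Betacellulin, Btc, was at 0.432 and 0.513 CPM at E16.5 and 148 and 217 CPM at P0.5 (log2 fold change 8.58, standard error 0.296, adjusted p = 6.62e-07), and epiregulin, Ereg, at 0.555 and 0.685 CPM at E16.5 and 159.7 and 56.7 CPM at P0.5 (log2 fold change 7.43, standard error 0.568, adjusted p = 2.96e-05). Areg was high in P0.5 control replicate 1 only, at 1.27 and 0.821 CPM at E16.5 and 8.26 and 1.08 CPM at P0.5, and Tgfa and Egfr itself had log2 fold changes of 0.30 and 0.28 with no call. Without P0.5 control replicate 2 Areg was called higher (2.97). The feedback inhibitors Spry4, Spry2, Dusp6 and Lrig1 fell, with log2 fold changes of -2.59 for Spry4 and -0.84 for Lrig1, which was not called without E16.5 control replicate 1 (-0.77). In the BMP and TGF-beta pathway 5 of 31 tested genes (16.1%) rose and 9 (29.0%) fell, beside 22.2% and 17.6% of all tested genes. The inhibitors of differentiation that BMP signals induce went both ways, with Id2 and Id1 at 1.75 and 1.29 and Id3 at -1.36, though Id1 was not called with the length and GC correction (0.71).

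Genes of DNA replication and mitosis fell in most cases. Of 57 tested replication and S phase genes 40 fell and 0 rose, a share of 70.2% beside 17.6% of all tested genes, and of 68 tested G2 and mitosis genes 50 (73.5%) fell and 0 rose. Their median log2 fold changes were -1.11 and -1.05. Uhrf1, which keeps DNA methylation through replication, was at 326 and 375 CPM at E16.5 and 67.4 and 93.2 CPM at P0.5 (log2 fold change -2.12, standard error 0.196, adjusted p = 8.20e-05). Mcm2, of the replicative helicase, was at 193 and 200.5 CPM at E16.5 and 62.2 and 89.5 CPM at P0.5 (log2 fold change -1.37, standard error 0.188, adjusted p = 5.61e-04), and Pcna, the sliding clamp, at 298 and 306 CPM at E16.5 and 185 and 199 CPM at P0.5 (log2 fold change -0.65, standard error 0.146, adjusted p = 0.00594). Foxm1 and Mybl2, which drive mitotic genes, had log2 fold changes of -1.91 (adjusted p = 2.06e-04) and -2.47 (adjusted p = 5.25e-05). Mki67, the usual marker of cycling cells, was at 602 and 418 CPM at E16.5 and 224 and 295 CPM at P0.5 (log2 fold change -0.97, standard error 0.222, adjusted p = 0.00642), while Cdk1 and Ccnb1 had -0.79 and -0.61 and were not called. Without P0.5 control replicate 2 these were called lower (-1.25 and -0.83), as was Cdk1 without E16.5 control replicate 2 (-0.85). Pcna was not called without E16.5 control replicate 1 (-0.67), E16.5 control replicate 2 (-0.64) or P0.5 control replicate 1 (-0.59), nor was Mki67 without E16.5 control replicate 1 (-0.69) or P0.5 control replicate 1 (-0.79), the directions staying the same.

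Inhibitors of the cyclin-dependent kinases went both ways. Cdkn1a, p21, was at 83.7 and 119 CPM at E16.5 and 315 and 217 CPM at P0.5 (log2 fold change 1.39, standard error 0.234, adjusted p = 0.00149), and Cdkn2b, p15, at 0.154 and 0.513 CPM at E16.5 and 16.1 and 11.9 CPM at P0.5 (log2 fold change 5.38, standard error 0.522, adjusted p = 1.06e-04). Cdkn2d, p19, fell, and Cdkn1c, p57, had a log2 fold change of -0.95 (adjusted p = 0.0304) with no call. Among the 20 tested G1 genes 5 (25%) rose and 6 (30%) fell, beside 22.2% and 17.6% of all tested genes. Ccnd1 and Ccnd2 were not called, at 0.40 and -0.60. Ccnd1 was called higher without E16.5 control replicate 2 (0.90), and Ccnd2 lower without P0.5 control replicate 2 (-1.01). E2f3, a factor of S phase entry, and Ccne1, cyclin E1, had log2 fold changes of -1.70 and -2.45. Of 63 listed replication-dependent histone genes 32 were tested, of which 7 (21.9%) were called higher and 1, Hist2h2be, lower. The share called higher was like the 22.2% of all tested genes. The histone median was 1.86. Their normal messages end in a stem-loop and carry no poly(A) tail, and the libraries were made by selecting polyadenylated RNA. The ribosomal RNA entry Rn45s was among the most abundant genes. How complete the selection was, and the part of tailed transcripts in the histone counts, were not tested. Their summed level was 98.2 and 92.5 CPM at E16.5 and 225 and 196 CPM at P0.5. The count of higher histone genes was 4 without E16.5 control replicate 1, 3 without P0.5 control replicate 1 and 2 without P0.5 control replicate 2. They are near-identical copies, and how shared reads were split is uncertain.

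Cytosolic ribosomal protein genes rose by a similar amount in most cases. Their summed level was 77825 and 71818 CPM at E16.5 and 160852 and 160207 CPM at P0.5, and 68 of 77 tested were called higher with a median of 1.19. Rpl39 and Rps25 had the largest rises called, at 1.72 and 1.66, and Rplp0 was at 2872 and 2611 CPM at E16.5 and 5524 and 5906 CPM at P0.5 (log2 fold change 1.06, standard error 0.164, adjusted p = 9.80e-04). The 1 gene called lower, Rps27, was at 2.098 and 3.11 CPM at E16.5 and 0.275 and 0.230 CPM at P0.5 and was not called without P0.5 control replicate 1 (-3.46) or replicate 2 (-3.22). Many processed copies of these genes lie in the genome, so the sharing of reads is uncertain. The rise was smaller with other settings, with 46 called higher with library size alone and 26 with the correction for length and GC content, where the median was 0.44. Under these settings Rplp0 was not called (0.60 and 0.39). Subunits of the respiratory chain and ATP synthase had a median of 0.58, with 36 of 79 tested called higher and 1, Atp5g3, lower. Ndufa4 was at 64.5 and 59.9 CPM at E16.5 and 434 and 359.99 CPM at P0.5 (log2 fold change 2.67, standard error 0.168, adjusted p = 1.04e-05), and Uqcrq, a subunit of complex III, at 62.6 and 57.3 CPM at E16.5 and 124 and 133 CPM at P0.5 (log2 fold change 1.10, standard error 0.141, adjusted p = 3.89e-04), whereas Cox4i1 and Atp5a1 had log2 fold changes of 0.046 and 0.12 with no call. The respiratory chain median was -0.073 with the length and GC correction, where 9 were higher and 9 lower and Uqcrq was not called (0.39), and 22 and 21 were higher without E16.5 control replicate 1 or replicate 2. Cox6a2, the muscle form of its subunit, had a CPM ratio of 91.1 (95% interval 15.2 to 3718) beside the muscle genes named further on. Mitochondrial ribosomal proteins had 20 of 75 called higher, a share of 26.7% that was close to the 22.2% of all tested genes. Their median of 0.42 was -0.040 with library size alone and -0.037 with the length and GC correction.

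Genes of fuel use differed by pathway. Of 24 tested fatty acid oxidation genes 19 rose and 1, Bdh1, fell, with a median of 1.09. Cpt1a, the carnitine transferase that admits fatty acids to mitochondria, was at 21.9 and 19.5 CPM at E16.5 and 96.5 and 79.2 CPM at P0.5 (log2 fold change 2.08, standard error 0.171, adjusted p = 4.40e-05). Fabp5, the epidermal fatty acid binding protein, was at 429.8 and 352 CPM at E16.5 and 3565 and 1919 CPM at P0.5. In glycolysis 5 of 25 (20%) rose and 8 (32%) fell, beside 22.2% and 17.6% of all tested genes. The glucose transporter Slc2a1 was at 434 and 503 CPM at E16.5 and 225 and 162 CPM at P0.5 (log2 fold change -1.28, standard error 0.199, adjusted p = 0.00103) and hexokinase Hk2 had a log2 fold change of -1.46 (adjusted p = 1.50e-04), while Pfkfb4 and Aldoc rose by 2.93 and 2.90. Without P0.5 control replicate 2, 10 glycolysis genes were called higher, Ldha among them at 0.94. Hypoxia-responsive genes split as well, 7 higher and 8 lower of 23, with a median of 0.19 that was -0.30 with library size alone and -0.094 with the length and GC correction. Epas1, which encodes the hypoxia factor HIF-2 alpha, was at 3.92 and 5.61 CPM at E16.5 and 152 and 100.1 CPM at P0.5 (log2 fold change 4.72, standard error 0.277, adjusted p = 7.18e-06), and Bnip3, a mitophagy receptor, at 14.6 and 23.1 CPM at E16.5 and 409 and 148 CPM at P0.5. Vegfa, the endothelial growth factor, was at 49.990 and 54.9 CPM at E16.5 and 12.9 and 5.68 CPM at P0.5 (log2 fold change -2.54, standard error 0.334, adjusted p = 4.44e-04), and Hif3a had a log2 fold change of -4.06. In cholesterol synthesis and uptake 10 of 24 rose and 4 fell. Sc5d and Sc4mol, enzymes of the last steps, rose by 3.10 and 2.35. The median of 0.26 for cholesterol genes was -0.198 with library size alone.

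Imprinted and fetal growth genes were called lower about as often as all genes. Grb10, an imprinted brake on insulin signalling, was at 148 and 117 CPM at E16.5 and 32.8 and 31.1 CPM at P0.5 (log2 fold change -2.06, standard error 0.170, adjusted p = 4.56e-05), Peg3 had a log2 fold change of -1.08 (adjusted p = 0.00258), and Igf2bp1 and Hmga2, both targets of the let-7 microRNAs, had -1.996 and -1.52. Peg3 was not called without E16.5 control replicate 1 (-0.76) or P0.5 control replicate 1 (-0.99). The growth factor gene Igf2 and its neighbour H19 stayed among the abundant genes, Igf2 at 511 and 354 CPM at E16.5 and 369.8 and 379 CPM at P0.5 and H19 at 3096 and 2485 CPM at E16.5 and 2066 and 2092 CPM at P0.5, neither of them called. Of 34 tested genes of the list 8 (23.5%, beside 17.6% of all tested genes) fell and 1, Slc38a4, rose, and 3 rose without P0.5 control replicate 2. Of 68 tested primary cilium genes 16 (23.5%, again close to the 17.6% of all genes) fell and 3 rose, Ttc30b, Ift20 and Ift46, with a median of -0.60. Its core transport genes Ift88 and Kif3a had log2 fold changes of -0.51 and 0.35 with no call, and the ciliogenic factor Rfx3 had -1.47 (adjusted p = 0.00323), lost without E16.5 control replicate 1 (-1.15). With library size alone 35 cilium genes fell. Among the subunits of the complexes that hold MOF, which the study deleted in its other animals, 6 of 13 (46.2%) fell and 0 rose, beside 17.6% and 22.2% of all tested genes. With the length and GC correction 4 of these subunits fell, and their median of -0.58 was -0.22. Kat8, which encodes MOF, was at 13.7 and 13.964 CPM at E16.5 and 18.3 and 23.3 CPM at P0.5 with no call, and Kansl1, Msl1 and Ogt fell, with log2 fold changes of -1.20, -1.09 and -1.53.

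Immediate early genes, which answer within minutes to stimulation and to the dissociation of tissue, had the lowest median of the 43 programme lists. Of 36 tested 23 fell and 3 rose, Myc, Gadd45g and Gadd45b, with a median of -1.71. Egr1 was at 2292 and 2869.6 CPM at E16.5 and 53.7 and 52.996 CPM at P0.5 (log2 fold change -5.60, standard error 0.212, adjusted p = 9.19e-07), and Fos at 1047 and 1301 CPM at E16.5 and 107 and 98.1 CPM at P0.5 (log2 fold change -3.52, standard error 0.190, adjusted p = 4.52e-06). The other AP-1 genes fell too, with Fosb at 301 and 392 CPM at E16.5 and 2.89 and 5.30 CPM at P0.5, Jun at 979 and 1250.00 CPM at E16.5 and 149.7 and 159 CPM at P0.5 and Junb at 576 and 781 CPM at E16.5 and 124 and 119.8 CPM at P0.5. Atf3, a stress factor of the same family, was at 279 and 426 CPM at E16.5 and 7.29 and 14.2 CPM at P0.5, and Nr4a1, an orphan receptor, at 404 and 597 CPM at E16.5 and 7.02 and 7.14 CPM at P0.5. Every one of these genes stood higher in E16.5 replicate 2 than in replicate 1, and both E16.5 libraries stood above both P0.5 libraries. Zfp36, Ier2, Btg2 and Dusp1, of the same early wave, fell, with log2 fold changes of -3.49, -2.58, -1.93 and -1.85. Without E16.5 control replicate 1, E16.5 control replicate 2 or P0.5 control replicate 1, 1 gene of the list was called higher. The dissociated cells and the sheets differed in handling, and what part handling had in this fall was not tested.

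Heat shock and chaperone genes fell in 14 (51.9%) and rose in 6 (22.2%) of 27 tested cases, beside 17.6% and 22.2% of all tested genes. Hsph1, a cochaperone of the cytosol, was at 71.4 and 81.1 CPM at E16.5 and 12.9 and 15.4 CPM at P0.5 (log2 fold change -2.42, standard error 0.178, adjusted p = 2.43e-05), and Sdf2l1, of the endoplasmic reticulum, had a log2 fold change of -2.104. Hspb1, a small heat shock protein that is abundant in the granular layer, was at 56.5 and 47.5 CPM at E16.5 and 688 and 390.2 CPM at P0.5 (log2 fold change 3.37, standard error 0.282, adjusted p = 4.83e-05), and Hspa1b rose by 1.23. In the integrated stress response 5 of 29 rose, among them Nupr1, Trib3 and Chac1, and 4 fell, shares of 17.2% and 13.8% that were below those of all tested genes. Nupr1 was at 1.60 and 1.51 CPM at E16.5 and 161 and 149 CPM at P0.5 (log2 fold change 6.63, standard error 0.186, adjusted p = 5.31e-07), and Trib3 had 4.41 (adjusted p = 1.24e-04), while the central factor Atf4 was at 260.01 and 275 CPM at E16.5 and 304 and 178 CPM at P0.5 with no call. Without P0.5 control replicate 1, 9 of these genes fell, and without P0.5 control replicate 2, 9 rose. Of 27 tested p53 targets 6 (22.2%) rose and 5 (18.5%) fell, shares like the 22.2% and 17.6% of all tested genes. Beside Cdkn1a and Perp, Trp53inp1 rose by 2.53 and Ccng1 by 0.997, while Ccng1 was not called with library size alone (0.53) or with the length and GC correction (0.54), and Mdm2, the inhibitor of p53, was at 52.2 and 51.4 CPM at E16.5 and 57.5 and 45.8 CPM at P0.5 with no call.

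**Figure D4:**
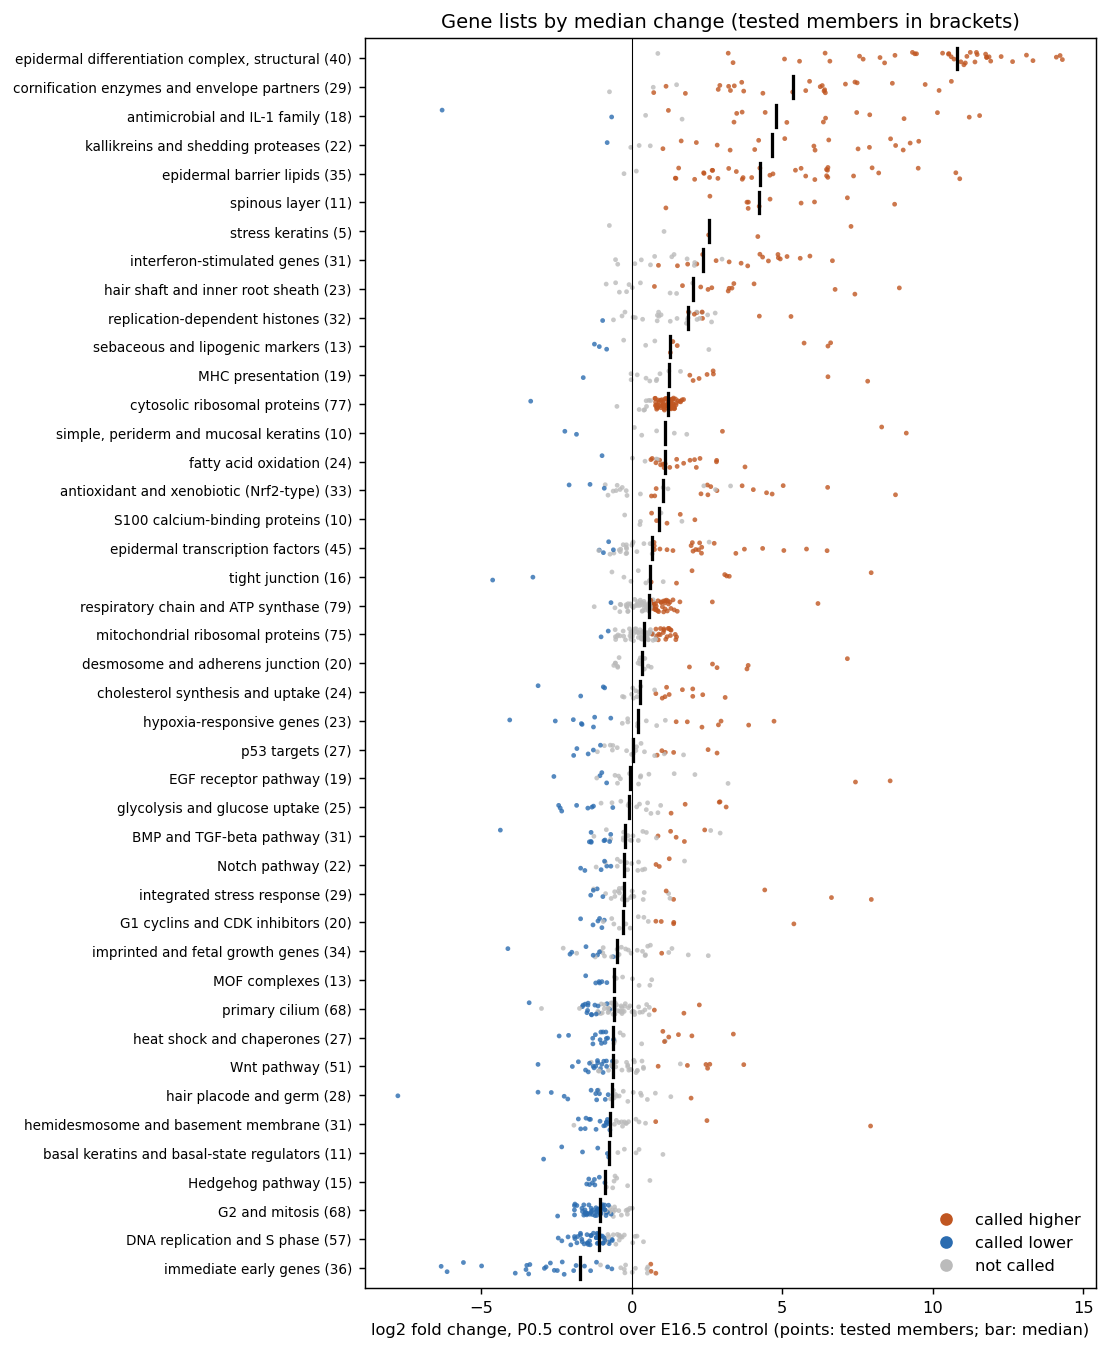
Log2 fold change (P0.5 control over E16.5 control) of each tested member of the 43 programme lists, ordered by list median (black bar), with the number of tested members in brackets and calls in colour. The list of epidermal differentiation complex genes is at the top with a median of 10.82, and immediate early genes at the bottom with -1.71.

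Epidermal cytokine and defence genes were mostly higher. Of 18 tested members of this list 14 were called higher and 2, Cxcl14 and Cxcl1, lower. Il18, an alarmin kept in keratinocytes, was at 0.0309 and 0.103 CPM at E16.5 and 195 and 142 CPM at P0.5 (log2 fold change 11.21, standard error 0.364, adjusted p = 5.87e-07). Il1a was at 0.0617 and 0 CPM at E16.5 and 52.4 and 35.6 CPM at P0.5 and Il1f6, which encodes IL-36 alpha, at 0.0309 and 0 CPM at E16.5 and 86.7 and 48.2 CPM at P0.5, and their CPM ratios were 1282 (95% interval 354 to 10603) and 3819 (95% interval 684 to 150945). In the interleukin 1 cluster on chromosome 2, 5 of 5 tested genes rose. Cxcl1, a neutrophil chemokine, went the other way, from 25.8 and 68.5 to 0.551 and 0.614 CPM (log2 fold change -6.30, standard error 0.608, adjusted p = 1.02e-04). Antioxidant and detoxification genes rose in 15 and fell in 3 of 33 tested cases. Catalase, Cat, was at 45.6 and 47.2 CPM at E16.5 and 239 and 216 CPM at P0.5 (log2 fold change 2.30, standard error 0.145, adjusted p = 1.04e-05), Cyp2b19, a keratinocyte cytochrome, rose by 8.76, and the Nrf2 targets Gclc and Nqo1 had log2 fold changes of -0.62 and -0.89 with no call.

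Of 19 tested genes of antigen presentation 8 rose, and 5 without P0.5 control replicate 2, and 1, H2-Q4, fell. B2m, the light chain of class I molecules, was at 32.0 and 35.5 CPM at E16.5 and 253 and 188 CPM at P0.5 (log2 fold change 2.71, standard error 0.185, adjusted p = 1.57e-05), and H2-K1 at 9.35 and 12.6 CPM at E16.5 and 42.5 and 40.7 CPM at P0.5 (log2 fold change 1.93, standard error 0.209, adjusted p = 1.81e-04), while H2-D1 was at 16.6 and 16.0 CPM at E16.5 and 16.2 and 15.8 CPM at P0.5 and Cd74, the class II chaperone, at 6.08 and 6.71 CPM at E16.5 and 5.23 and 12.1 CPM at P0.5. The class I genes are near-copies. Of 31 tested interferon-stimulated genes 19 rose and 0 fell, with a median of 2.35, and 12 rose without P0.5 control replicate 1 and 5 without P0.5 control replicate 2. Levels were low, as with Irf7 at 0.494 and 1.54 CPM at E16.5 and 6.06 and 12.7 CPM at P0.5 and Ifit1 at 0.0926 and 0 CPM at E16.5 and 1.24 and 1.997 CPM at P0.5. Irf7 was not called without P0.5 control replicate 2 (2.58), and Ifit1 was not called without P0.5 control replicate 1 (5.25). The summed level of the list was 132 and 142 CPM at E16.5 and 389 and 401 CPM at P0.5, and macrophage markers moved with it from 23.6 and 48.1 CPM to 419 and 450.1 CPM. The part of those cells in the antigen presentation and interferon genes was not tested.

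Markers of pigment and immune cells were higher in the whole sheets. Melanocyte genes summed to 92.3 and 129.7 CPM at E16.5 and 783 and 936 CPM at P0.5, and 14 of 16 tested rose. Dct, which makes a melanin precursor, was at 7.75 and 22.007 CPM at E16.5 and 297 and 293 CPM at P0.5 (log2 fold change 4.31, standard error 0.431, adjusted p = 1.21e-04), and tyrosinase, Tyr, at 1.45 and 1.75 CPM at E16.5 and 42.9 and 53.1 CPM at P0.5 (log2 fold change 4.91, standard error 0.242, adjusted p = 2.77e-06). Of macrophage genes 21 of 23 tested rose and 0 fell. Csf1r, the growth factor receptor of macrophages and Langerhans cells, was at 0.185 and 0.856 CPM at E16.5 and 42.9 and 41.6 CPM at P0.5 (log2 fold change 6.36, standard error 0.477, adjusted p = 2.65e-05), and C1qa, of the complement, at 0.0617 and 0.171 CPM at E16.5 and 33.6 and 41.2 CPM at P0.5. Langerhans and dendritic markers summed to 10.8 and 13.4 CPM at E16.5 and 85.1 and 98.2 CPM at P0.5, with 6 of 9 tested higher. Csf1r is in this list as well as the macrophage list, and gave 42.9 and 41.6 CPM of the sum at P0.5. The 2 lists are thus not separate measures. Itgax had 0 counts at E16.5 and 3.99 and 4.61 CPM at P0.5, at least 44.0-fold higher. Cd207, langerin, the defining Langerhans gene, had 3 counts in E16.5 replicate 1 and 0 in the other libraries. Of T cell genes 10 of 14 tested rose and 1, Lck, fell, Lck not being called without E16.5 control replicate 1 (-1.31) or P0.5 control replicate 1 (-1.34), with 4 higher without P0.5 control replicate 1 and 2 without P0.5 control replicate 2. Cd3g was at 0 counts at E16.5 and 4.82 and 3.07 CPM at P0.5, at least 40.4-fold higher, and the summed level was 15.7 and 12.972 CPM at E16.5 and 33.9 and 33.1 CPM at P0.5.

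Dermal fibroblast genes were counted in all 4 libraries. Fibroblast genes summed to 2553 and 3564 CPM at E16.5 and 3851 and 2667 CPM at P0.5, with 4 of 25 (16%) called higher and 1 (4%) lower. Both shares were below the 22.2% and 17.6% of all tested genes. Col3a1 was at 129 and 369 CPM at E16.5 and 795 and 363 CPM at P0.5 and Col1a1 at 114 and 304 CPM at E16.5 and 481 and 233 CPM at P0.5, so that E16.5 replicate 2 and P0.5 replicate 1 were the higher library of their stage. Without E16.5 control replicate 2, 14 fibroblast genes were called higher, Col3a1 and Col1a1 among them (2.16 and 1.64), and 8 without P0.5 control replicate 2. Pdgfra was at 1.23 and 2.12 CPM at E16.5 and 25.9 and 8.06 CPM at P0.5 (log2 fold change 3.31, standard error 0.568, adjusted p = 0.00163), and Dcn, which encodes the proteoglycan decorin, at 468 and 483 CPM at E16.5 and 357 and 471 CPM at P0.5. Dermal condensate and papilla genes, the signalling cells under the follicle, summed to 12.6 and 11.1 CPM at E16.5 and 56.8 and 26.8 CPM at P0.5, with 5 of 11 tested higher, Bmp3, Alx4, Sox18, Corin and Rspo3, and 2 without P0.5 control replicate 1, where Alx4 (5.40) and Rspo3 (3.09) were not called. In the main comparison the share of condensate and papilla genes called higher was 45.5%, beside 22.2% of all tested genes. Skeletal muscle genes stood out in P0.5 control replicate 1. They summed to 6.30 and 6.91 CPM at E16.5 and 533 and 17.7 CPM at P0.5, with Acta1 at 0.586 and 0.753 CPM at E16.5 and 145 and 1.77 CPM at P0.5, and 5 of 9 tested were called higher, 0 of 9 without P0.5 control replicate 1 and 14 or 15 of 16 or 17 tested without another library. Adipocyte genes were higher in 4 of 5 tested cases (80%), with Fabp4 at 1.11 and 1.68 CPM at E16.5 and 25.3 and 8.14 CPM at P0.5. With any 1 library left out, the median log2 fold change of the tested adipocyte genes was 3.10 to 4.30, beside 3.56 in the main comparison.

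Endothelial, Schwann, Merkel and mast cell genes did not rise as groups. Of 14 tested endothelial genes 1, Egfl7, fell, of 11 Schwann and neuronal genes 1 fell, and of 12 Merkel cell genes 1, Piezo2, fell. These shares of 7.14%, 9.09% and 8.33% were below the 17.6% of all tested genes. Pecam1 was at 1.88 and 2.22 CPM at E16.5 and 3.58 and 1.23 CPM at P0.5, and Atoh1, the factor that makes Merkel cells, at 2.53 and 2.87 CPM at E16.5 and 1.51 and 1.997 CPM at P0.5. None of the 5 tested mast cell genes was called, with Cpa3 at 8.24 and 5.34 CPM at E16.5 and 9.36 and 1.69 CPM at P0.5. Of the erythroid genes Alas2 alone was tested, at 2.31 and 3.59 CPM at E16.5 and 6.19 and 2.38 CPM at P0.5. The adult alpha and beta globin genes listed had 0 counts in all 4 libraries. These globin genes are near-copies, and reads with more than 1 alignment were not counted on genes. The 0 counts therefore do not show that red cell RNA was absent. Sebaceous and lipogenic genes rose in 6 (46.2%) and fell in 3 (23.1%) of 13 tested cases, beside 22.2% and 17.6% of all tested genes. Dgat2, which makes triglyceride, was at 8.39 and 7.19 CPM at E16.5 and 513 and 311 CPM at P0.5 (log2 fold change 5.72, standard error 0.288, adjusted p = 3.08e-06), while Fasn, fatty acid synthase, was at 319 and 397 CPM at E16.5 and 134 and 168 CPM at P0.5 (log2 fold change -1.24, standard error 0.186, adjusted p = 8.50e-04) and at a log2 fold change of 0.036 with the length and GC correction.

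**Figure D5:**
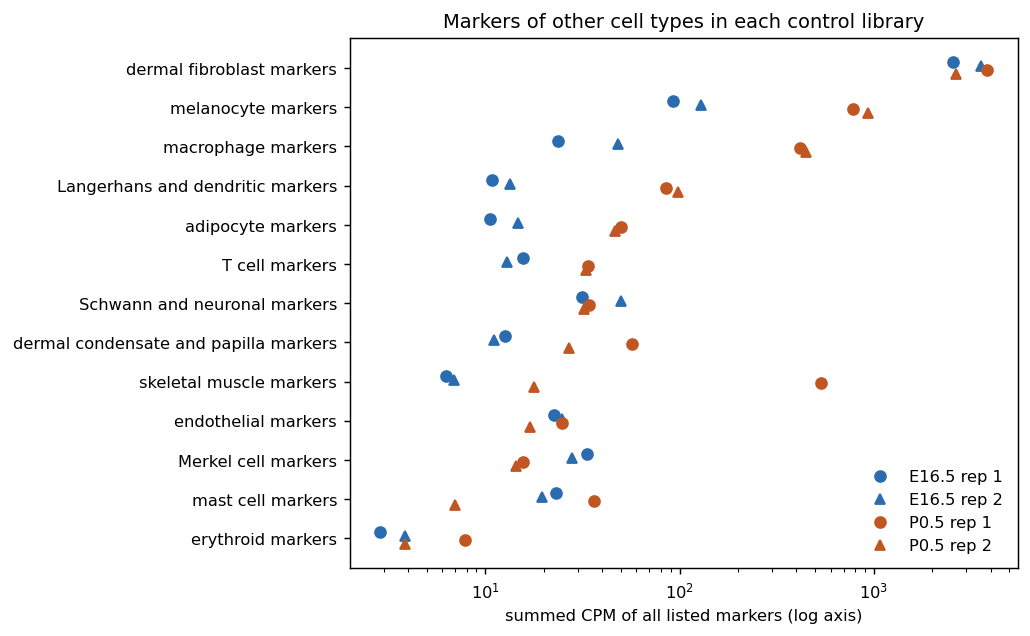
Summed CPM (log axis) of all listed markers of 13 other cell types in each control library, with circles for replicate 1 and triangles for replicate 2. Melanocyte, macrophage and Langerhans sums are higher in both P0.5 libraries (orange) than in both E16.5 libraries (blue), the muscle sum is high in P0.5 replicate 1 alone, and fibroblast sums overlap between the stages. Csf1r enters both the macrophage and the Langerhans sums.

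Beyond the fixed lists, the 12 largest rises with a mean of at least 5 CPM at P0.5 held 7 genes of the epidermal differentiation complex, already given, and Serpina12, Pla2g5, Gm94, Gm3776 and 2010109I03Rik. Serpina12, the serpin vaspin, was at 0.154 and 0.0342 CPM at E16.5 and 983 and 723 CPM at P0.5 (log2 fold change 13.01, standard error 0.415, adjusted p = 5.73e-07), and Gm94, a predicted gene, at 0.278 and 0.308 CPM at E16.5 and 1728 and 1201 CPM at P0.5 (log2 fold change 12.26, standard error 0.342, adjusted p = 5.31e-07). Pla2g5, a secreted phospholipase, had 0 counts at E16.5 and 37.4 and 23.5 CPM at P0.5, at least 312-fold higher, and 2010109I03Rik was at least 667-fold higher. The 12 largest falls were led by Fosb, Cxcl1 and Nr4a1 and also held Egr1, Atf3, Tnf and Irf1. Tnf, the inflammatory cytokine, was at 24.9 and 58.0 CPM at E16.5 and 1.10 and 0.384 CPM at P0.5 (log2 fold change -5.97, standard error 0.589, adjusted p = 1.14e-04), and Irf1, an early factor of the interferon response, at 75.5 and 141 CPM at E16.5 and 2.89 and 3.76 CPM at P0.5 (log2 fold change -4.99, standard error 0.355, adjusted p = 2.00e-05). Gria2, a glutamate receptor subunit, went from 13.8 and 8.04 to 0.138 and 0.154 CPM. Fam71a, AI414108, Gm8801 and A730098P11Rik were the others.

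Fold changes moved with transcript length and GC content across all genes. The fifth of genes with the shortest transcripts, 66 to 1945 bases, had a median log2 fold change of 0.41, with 31.6% called higher and 8.30% lower, and the fifth with the longest had -0.31, with 14.2% higher and 26.3% lower. In the fifth with the lowest GC content the median was 0.36, with 30.8% higher and 7.63% lower, and in the highest -0.38, with 14.9% and 27.1%. Isolation and instrument changed with stage, and their part in this trend was not tested. The envelope, enzyme, lipid and protease lists had 38, 26, 33 and 18 genes called higher under the correction.

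Between replicates, 34 of 8920 genes with a mean of at least 10 CPM differed by more than 2-fold at E16.5 and 157 of 9186 at P0.5, where 133 were higher in replicate 1. Other genes higher in P0.5 control replicate 1 included the muscle gene Acta1 and the stress-linked epidermal genes Krt6b, Rptn, Krt16 and Sprr1b, each given above. At E16.5 replicate 2 was higher in Col3a1, Col1a1 and Rn45s, the ribosomal RNA entry, which was at 5710.1 and 16779 CPM at E16.5 and 26743 and 27624 CPM at P0.5 and was called higher without E16.5 control replicate 2 (2.25).

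The same stages were set side by side in the knockout libraries, P0.5 Kansl1 cKO against E16.5 MOF cKO, a choice made after the values were seen. They share no library with the controls but mix genotype with stage. Isolation and instrument also changed with stage there, as in the controls, so shared calls cannot be assigned to stage. There 2620 (18.9%) of 13861 tested genes were called higher and 2460 (17.7%) lower at P0.5. Of the genes called higher in the controls, 1917 were also called in the knockouts, which is 62.4% of the control calls and 73.2% of the knockout calls. Of those called lower, 1404 were shared, 57.6% and 57.1%, and 21 and 14 were called in the opposite direction. Of the tested structural genes of the epidermal differentiation complex 34 of 39 were higher there and 0 lower, of spinous genes 12 of 13, and of immediate early genes 22 of 36 were lower. Cytosolic ribosomal proteins were called higher in 6 of 77, interferon-stimulated genes in 2 of 33, and primary cilium genes were higher in 25 and lower in 3 of 68, and whether these differ from the controls was not tested.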

How the data were processed

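Polyadenylated RNA of 4 control libraries, 2 sorted E16.5 samples and 2 P0.5 epidermal sheets, was compared, and the 4 knockout libraries entered only the overlap and 1 alternative fit. The authors made strand-specific paired-end libraries, mapped the reads to mm10 (HISAT2 in the study's methods, TopHat2 in the processing notes) and deposited raw read counts per gene from HTSeq, 1 table per library. The gene annotation and strand setting of the counting are not given in the sources used here, so reads of overlapping or antisense genes may not be told apart. The summary entries that name no gene, 21.1% to 25.1% of all entries, entered neither library sizes nor tests.

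Of 23432 gene symbols, 23052 (98.4%) matched GENCODE M21, which gave positions, lengths and GC content. Genes that passed edgeR's filterByExpr were fitted with TMM factors and the quasi-likelihood test (edgeR 4.0.16, limma 3.58.1, R 4.3.3) over the control libraries alone, with Benjamini-Hochberg adjustment over all tested genes, using the study's thresholds. Intervals of count ratios are exact 95% binomial ones and cover counting error only. The members and the 56 gene lists were chosen with earlier results of these data known. Named genes were key genes listed by hand, up to 3 called members per list with the largest change, the 12 largest rises and falls with separate groups and at least 5 CPM, and the 10 most abundant genes per stage. Genes named as exceptions in a small count, and the ends of a gene cluster, were chosen after their values were seen. On counts simulated for this comparison over 13859 genes, 25 of 100 genes changed by 1 on the log2 scale and 73 of 100 changed by 2 were called, with 2 false calls among 13659. No other genes were changed there, whereas 39.7% of the tested genes were called in the data. Adjusted p depends on how many genes change, so these rates do not carry over to the data. Alternatives were DESeq2 1.42.0, other edgeR tests, scalings, filters and thresholds, offsets for length and GC content, the replicate block and leaving out each library. Promoter sequences came from RefSeq on GRCm38.p6. Results for some genes are not reported here.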

Additional observations from a re-analysis of the deposited data

How the results depend on the processing

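The main counts of 3070 genes higher and 2436 lower at P0.5 stayed within 1.5 times under most alternatives. The lower count was 1168 when genes were tested against a 1.5-fold change and 4340 with library size alone, where the median of all genes shifted by construction, and the higher counts there were 2128 and 2089. DESeq2 called 3398 higher and 2508 lower. With any 1 library left out, from 2585 to 2878 genes were higher and from 2005 to 2482 lower, and such fits assume that the lone library of a stage varies like the other stage. With the offsets for length and GC content 2812 were higher and 2032 lower, of which 2400 and 1458 were among the main calls and 1 had the opposite direction. Under those offsets the median of hemidesmosome and basement membrane genes was 0.053, that of mast cell genes was -0.34, and the log2 fold changes were 0.26 for Itgb4, 0.90 for Notch3, 0.23 for Jag2 and 0.036 for Fasn, each of the other sign than in the main comparison. The cause was not tested. The mast cell median was -1.29 to 1.36 with 1 library left out, being -1.29 without P0.5 control replicate 1. Xist went from -8.94 to 4.72 in those fits, with 4.72 without E16.5 control replicate 1, since the replicates differ in sex. Replicate numbers are shared by both stages. The correlation of same-numbered deviations was -0.034 (Pearson) across 13854 genes, taken without Xist and the Y-linked genes. Same-numbered samples thus had little deviation in common over these genes. They were alike in the sex genes left out, with Xist high in replicate 1 and Y-linked genes counted in replicate 2 of both stages. The fit with the replicate block called 2898 genes higher and 2321 lower, with 2835 and 2240 shared with the main calls. At the P0.5 depths 1 count stands for up to 0.138 CPM, which is the smallest step between values there.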
